A study of Mus musculus with 8 samples.

Results

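The mitochondrial respiratory chain genes of tumor-associated macrophages (TAMs) were followed by gene symbol, as the genes whose names start with Nduf, Sdh, Uqcr, Cox4, Cox5, Cox6, Cox7, Cox8 or Atp5. Of 21051 genes listed, 99 had such a symbol, and 98 of these had a value in the 7 libraries with complete tables, against 16786 of all genes. The table of TAM-KO replicate 1 held 72 of the 98, so 26 were compared between 4 TAM-WT and 3 TAM-KO libraries. Complex I had 46 of the genes, complex II 8, complex III 8, complex IV 19 and complex V 17, with Ndufa4 and Ndufa4l2 counted with complex IV, where their products act. The subunits encoded by mitochondrial DNA were not analysed here.

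CD45+F4/80+ cells were sorted from s.c. B16 melanomas on day 14 after injection, and their RNA was sequenced with 1 library per sample. TAM-WT were the libraries of 4 WT mice and TAM-KO those of 4 Colec11-/- mice, which lack collectin-11, a soluble lectin, in the whole body. Both groups were C57BL/6, were injected with the same tumor cells and had no other treatment. The paper reports smaller tumors in the Colec11-/- mice, and the part of tumor size was not tested here. Per the methods the mice were males of 8 to 10 weeks and the controls were littermates. B16 is a pigmented melanoma line of C57BL/6 origin.

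The respiratory chain sits in the inner mitochondrial membrane. Complex I takes electrons from NADH and complex II from succinate, complex III passes them to cytochrome c, and complex IV hands them to oxygen. Complexes I, III and IV pump protons, and complex V, the ATP synthase, uses the return of the protons to make ATP. In macrophages the use of this chain, against glycolysis, is known to vary with the activation state.

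These nuclear genes are known to share regulators, among them NRF1, the ETS factor GABPA, YY1 and the estrogen-related receptors (ERR). RefSeq promoters (GRCm38.p6) were matched for 81 of the 98 genes and searched on both strands, over 300 bases each. The NRF1 motif GCGCANGCG was found in 24 of the 81 (29.6%), against 15.1% of 10004 genes tested and 7.03% of 27025 genes with a promoter. The ETS motif CCGGAAG was found in 27.2% (20.2% of genes tested and 9.93% of all), the YY1 motif AAGATGGCG in 9.88% (3.56% and 1.64%), and the ERR motif TCAAGGTCA in 2.47% (0.33% and 0.466%). At least 1 of the 4 was present in 44 promoters (54.3%, against 34.1% and 16.9%). These are matches of letters, the shares were not matched for base composition, and motifs rich in C and G may overlap each other. The promoters of a broadly used complex IV subunit (Cox6a1), a catalytic subunit of complex II (Sdha), a complex V stalk subunit (Atp5j) and a muscle-type complex IV isoform (Cox7a1) are shown as examples, each with the 250 bases before the transcript start and with matches in capitals. They lie at chr5:115348959-115349208 on the minus strand, chr13:74350241-74350490 on the minus strand, chr16:84834977-84835226 on the minus strand and chr7:30183921-30184170 on the plus strand.
Cox6a1: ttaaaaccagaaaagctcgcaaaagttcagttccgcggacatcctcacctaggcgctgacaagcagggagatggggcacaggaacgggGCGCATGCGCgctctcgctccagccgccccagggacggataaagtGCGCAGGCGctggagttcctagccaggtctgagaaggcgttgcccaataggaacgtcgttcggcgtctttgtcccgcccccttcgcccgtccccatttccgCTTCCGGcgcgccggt
Sdha: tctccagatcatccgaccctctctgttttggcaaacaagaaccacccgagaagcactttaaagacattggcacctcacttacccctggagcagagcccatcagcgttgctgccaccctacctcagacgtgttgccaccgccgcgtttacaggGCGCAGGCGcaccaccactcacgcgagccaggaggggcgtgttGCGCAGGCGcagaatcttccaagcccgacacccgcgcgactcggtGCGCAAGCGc
Atp5j: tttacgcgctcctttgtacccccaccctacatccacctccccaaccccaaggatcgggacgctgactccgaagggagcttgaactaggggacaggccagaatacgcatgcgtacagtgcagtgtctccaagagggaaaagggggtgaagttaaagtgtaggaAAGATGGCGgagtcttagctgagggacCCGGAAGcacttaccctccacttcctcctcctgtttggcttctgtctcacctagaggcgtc
Cox7a1: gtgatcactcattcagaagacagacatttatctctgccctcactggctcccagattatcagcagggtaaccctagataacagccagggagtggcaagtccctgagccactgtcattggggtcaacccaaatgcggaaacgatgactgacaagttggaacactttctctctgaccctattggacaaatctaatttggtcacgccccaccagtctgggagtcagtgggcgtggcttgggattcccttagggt
The first and second of these held the NRF1 motif at several places, Cox6a1 also held an ETS match near the start, and Atp5j held a YY1 and an ETS match. Another listed promoter of Atp5j, at chr16:84835626-84835875 on the minus strand, held none of the 4 motifs in its 250 bases. None of the 4 motifs was in the shown bases of Cox7a1, which says nothing of the factors themselves.

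As a group these were abundant transcripts. FPKM, the reads of a gene relative to its length and to the library, is the scale for comparing genes, and its median was 115 over the 94 genes tested against 11.4 over 12412 genes. The 78 subunits left without the complex IV isoforms, a list that held the abundant Cox7a2l (mean FPKM 111), had a median FPKM of 149. The 12 assembly factors of complexes I and II, which build the complexes and are not part of them, had 8.87. By complex, the median FPKM of the subunits was 92.8 for I, 114 for II, 148 for III, 417 for IV and 308 for V. Atp5b, the catalytic beta subunit of the ATP synthase, had the highest mean FPKM (801), followed by Cox8a and Cox7c of complex IV (768 and 701). FPKM of the shortest genes depends on the effective length that RSEM assigns them.

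**Figure D1:**
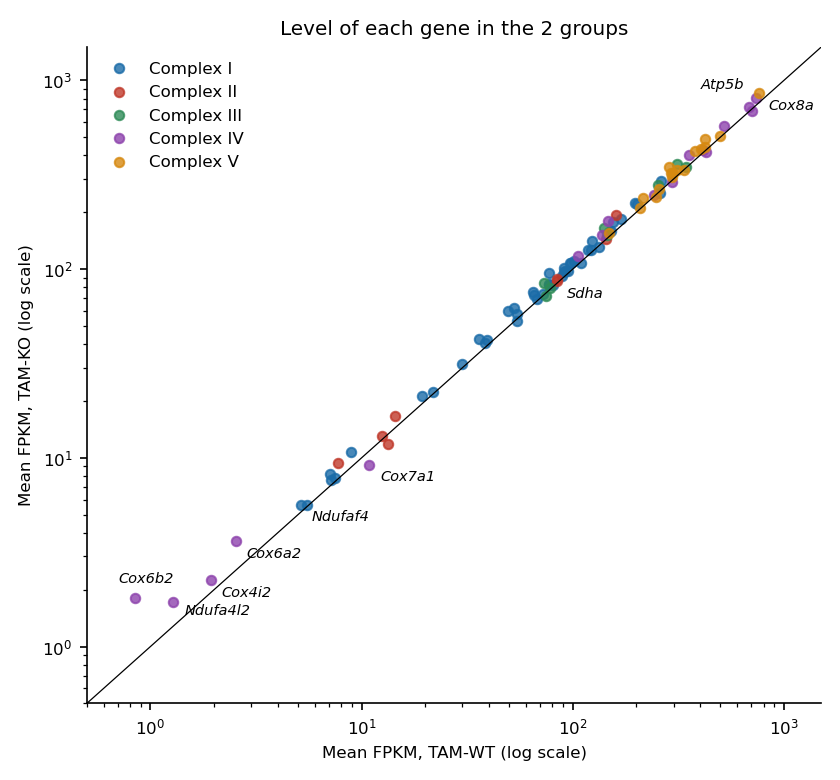
Mean FPKM of each gene in TAM-WT (horizontal, n = 4) and TAM-KO (vertical, n = 3 or 4), both on log scales, for 95 genes, colored by complex; the line marks equal values, and 3 genes at 0 in a group are left out. The genes lie along the line, most slightly above it (83 of 94 in the fit on log2(FPKM + 1), where the median of all genes was 0.09), with the restricted complex IV isoforms at the lower left and Atp5b and Cox8a at the upper right.

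Where a complex IV subunit exists in a common and a restricted form, the common form carried most of the level. Cox4i1, a regulatory subunit, had a mean FPKM of 429 in TAM-WT and its hypoxia-linked isoform Cox4i2 had 1.93. Cox6a1 had 683 against 2.55 for the muscle form Cox6a2, and Ndufa4 had 519 against 1.27 for Ndufa4l2. Cox7a2 had 137 and the muscle form Cox7a1 10.9, the latter from 11 to 28 reads per library. Cox8b, another muscle form, had at most 1 read in a library, against an FPKM of 738 for Cox8a. In TAM-KO the restricted forms were as low, with mean FPKM of 2.25 for Cox4i2, 3.62 for Cox6a2, 1.72 for Ndufa4l2 and 9.21 for Cox7a1. Cox6b2, Cox7b2, Cox8b and Ndufb4b were too low to be tested.

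Libraries were compared before groups. Reads on genes numbered from 16225362 to 17280267 in the 7 libraries with complete tables, and 0.782 to 0.991% of them fell on respiratory chain genes. Colec11 had 0 to 4 reads in TAM-WT and 1 in each TAM-KO library, so it could not check the labels. TAM-WT replicate 2 stood apart: over 7914 genes its median absolute log2 difference was 0.18 to its own group and 0.16 to TAM-KO, while each of the other 7 libraries was nearer to its own group. All 12 macrophage markers were measured, and their summed level was 14357 to 19020 CPM (counts scaled to library size) in TAM-WT and 11632 to 14967 in TAM-KO. The sum does not stand for each marker. Lyz2, the most abundant, was at 5518 to 7887 CPM in TAM-WT and at 3149 to 4969 CPM in TAM-KO replicates 2 to 4. Fcgr1 went the other way (133 to 235 and 262 to 284 CPM), and C1qa, C1qb and C1qc overlapped between the groups. The 10 melanoma markers, led by Tyrp1, Pmel, Dct and Gpnmb (the last also a macrophage gene), were none of them at 0, and summed to 6926, 11189, 6915 and 6479 CPM in TAM-WT replicates 1 to 4 and to 10213 to 11915 in TAM-KO. On this measure TAM-WT replicate 2 lay among the TAM-KO libraries. The 9 T cell markers with a value summed to 35.7, 6.61, 9.42 and 8.27 CPM in TAM-WT replicates 1 to 4 and to 41.5 to 97.0 CPM in TAM-KO. On this measure, and on the 8 NK cell markers (1.38 CPM, against 16.5 to 59.0 in TAM-KO), TAM-WT replicate 2 was the lowest library and lay with TAM-WT. The part of other cells in the levels below was not tested, and in bulk RNA fewer cells of a type and less RNA per cell cannot be told apart.

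The summed level of the 98 genes, scaled by TMM, was 8469, 9754, 8642 and 8573 CPM in TAM-WT replicates 1 to 4. In TAM-KO replicates 2 to 4 it was 8835, 8887 and 8728 CPM. TAM-WT replicate 2 was thus the highest library, and the 3 TAM-KO libraries lay between it and the other TAM-WT libraries. The group means were 8859 ± 601 CPM (SD, n = 4) and 8817 ± 81.0 CPM (SD, n = 3), a difference smaller than the spread between WT mice. Without TAM-WT replicate 2 the TAM-WT mean was 8561 ± 87.0 CPM (SD, n = 3), and TAM-KO was 0.04 higher on the log2 scale.

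Among the 7 libraries with complete tables, TAM-WT replicate 2 was the highest in each complex as well. Over the 6 complex IV genes with a value in all 8 libraries, TAM-KO replicate 1 was higher (235 against 231 CPM). Complex I summed to 1935, 2217, 1971 and 1947 CPM in TAM-WT and to 2012, 1996 and 2031 CPM in TAM-KO. Complex V, the largest of the complexes by this sum, came to 3686, 4263, 3727 and 3764 CPM in TAM-WT and to 3855, 3916 and 3780 CPM in TAM-KO. Complex IV gave group means of 1575 ± 117 (SD, n = 4) and 1577 ± 32.2 CPM (SD, n = 3), complex III 763 ± 44.7 and 743 ± 1.54 CPM, and complex II 644 ± 40.7 and 634 ± 17.1 CPM. In each complex the groups overlapped. Without it, the log2 difference between the group means ranged from 0.0010 in complex III to 0.05 in complex IV.

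**Figure D2:**
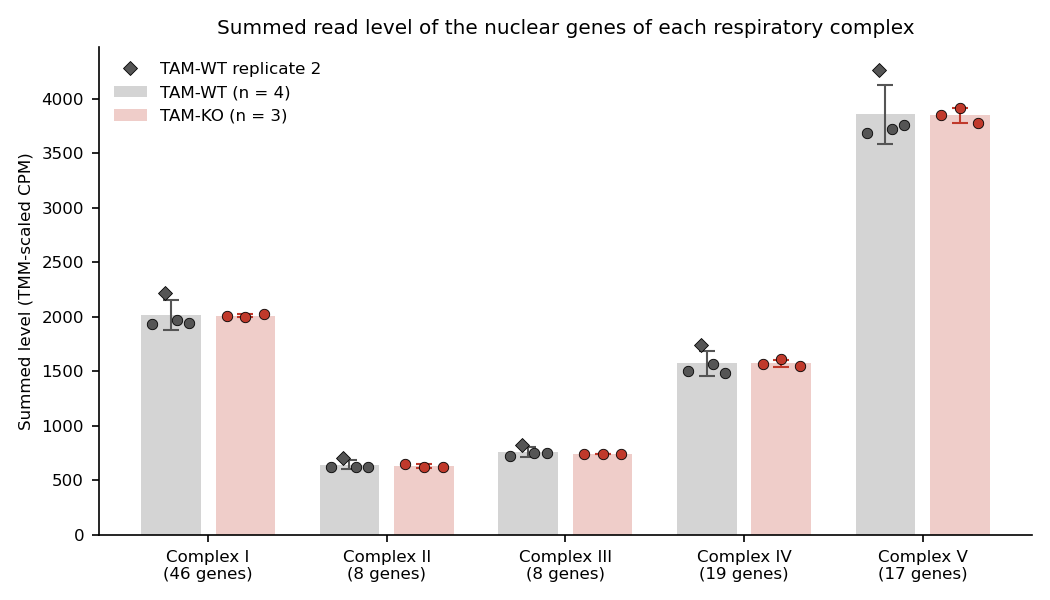
Summed level in TMM-scaled CPM of the nuclear genes of each respiratory complex, one point per library, for 4 TAM-WT and 3 TAM-KO libraries; bars show the mean and error bars the SD. The diamond, TAM-WT replicate 2, is the highest of these 7 points in each complex, and the bars of the groups are nearly level.

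Gene by gene, TAM-WT replicate 2 was again high. Of 66 genes with a mean of at least 5 CPM and a value in all 8 libraries, 34 (51.5%) were highest in that library, against 14.3% of 7914 genes. TAM-KO replicate 1 was highest for 14 of them (21.2%, against 9.88% of all genes). The median log2 deviation from the gene's own mean over the libraries was 0.14 in TAM-WT replicate 2 and 0.09 in TAM-KO replicate 1, and from -0.06 to -0.01 in the other 6 libraries. Across the 7 libraries with complete tables, 63 of 88 genes were highest in TAM-WT replicate 2. Within groups the genes varied little, with a median SD of 0.10 in log2 CPM against 0.14 over 10379 genes. The 2 sets were not matched for level, and the respiratory chain genes were the more abundant.

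**Figure D3:**
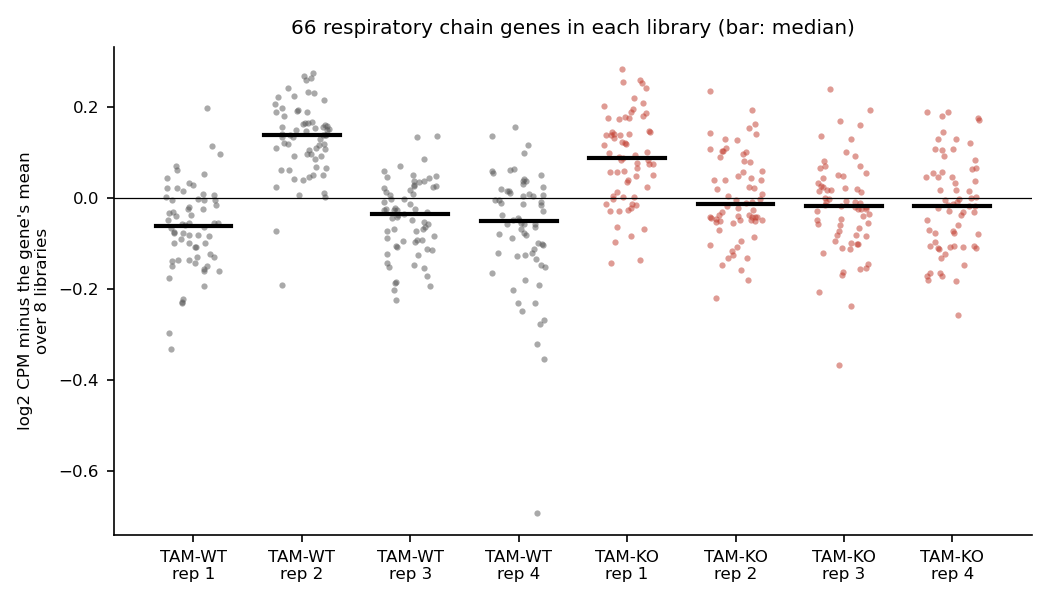
Log2 CPM of 66 respiratory chain genes in each library, as the difference from the gene's mean over 8 libraries; points are genes, bars the median of the library. TAM-WT replicate 2 (median 0.14) and TAM-KO replicate 1 (0.09) lie above the other libraries, and the lowest point is Atp5e in TAM-WT replicate 4.

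Loss of collectin-11 was not accompanied by a called change in any of the genes. Of the 94 tested with edgeR's quasi-likelihood test, 0 passed an adjusted p of 0.05, while 1218 of 12412 genes did (9.81%), 568 higher and 650 lower in TAM-KO. Two-sided and unadjusted, 2 of the 94 (2.13%) had p under 0.05, against 30.7% of all genes. DESeq2 also called 0 of the 94, when it called 1081 of 12412 genes higher and 1172 lower. The median log2 fold change (TAM-KO over TAM-WT) was 0.0093 over the 94 genes and 0.0016 over all genes, with 52 above 0 and 42 below. Scaled to total reads, 84 lay above 0 and 10 below, with a median of 0.09 that all genes shared (0.09), so no direction is given for the group.

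The intervals were narrow for most of the genes. The 95% interval of the log2 fold change lay within a 2-fold change for 90 of 94 genes (95.7%, against 83.8% of all genes), and within a 1.5-fold change for 89 (94.7%, against 65.1%). The 4 with wider intervals were the low isoforms Cox4i2, Cox6a2, Cox7a1 and Ndufa4l2, and the other gene outside 1.5-fold was Ndufb4c. Of the 10379 genes with a mean of at least 5 CPM, 91.1% had intervals within 2-fold and 76.0% within 1.5-fold. Smaller changes could not be told from none in these libraries. By complex the median log2 fold change was 0.0080 for I, -0.03 for II, 0.02 for III, 0.05 for IV and 0.01 for V, with 0 calls in each.

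**Figure D4:**
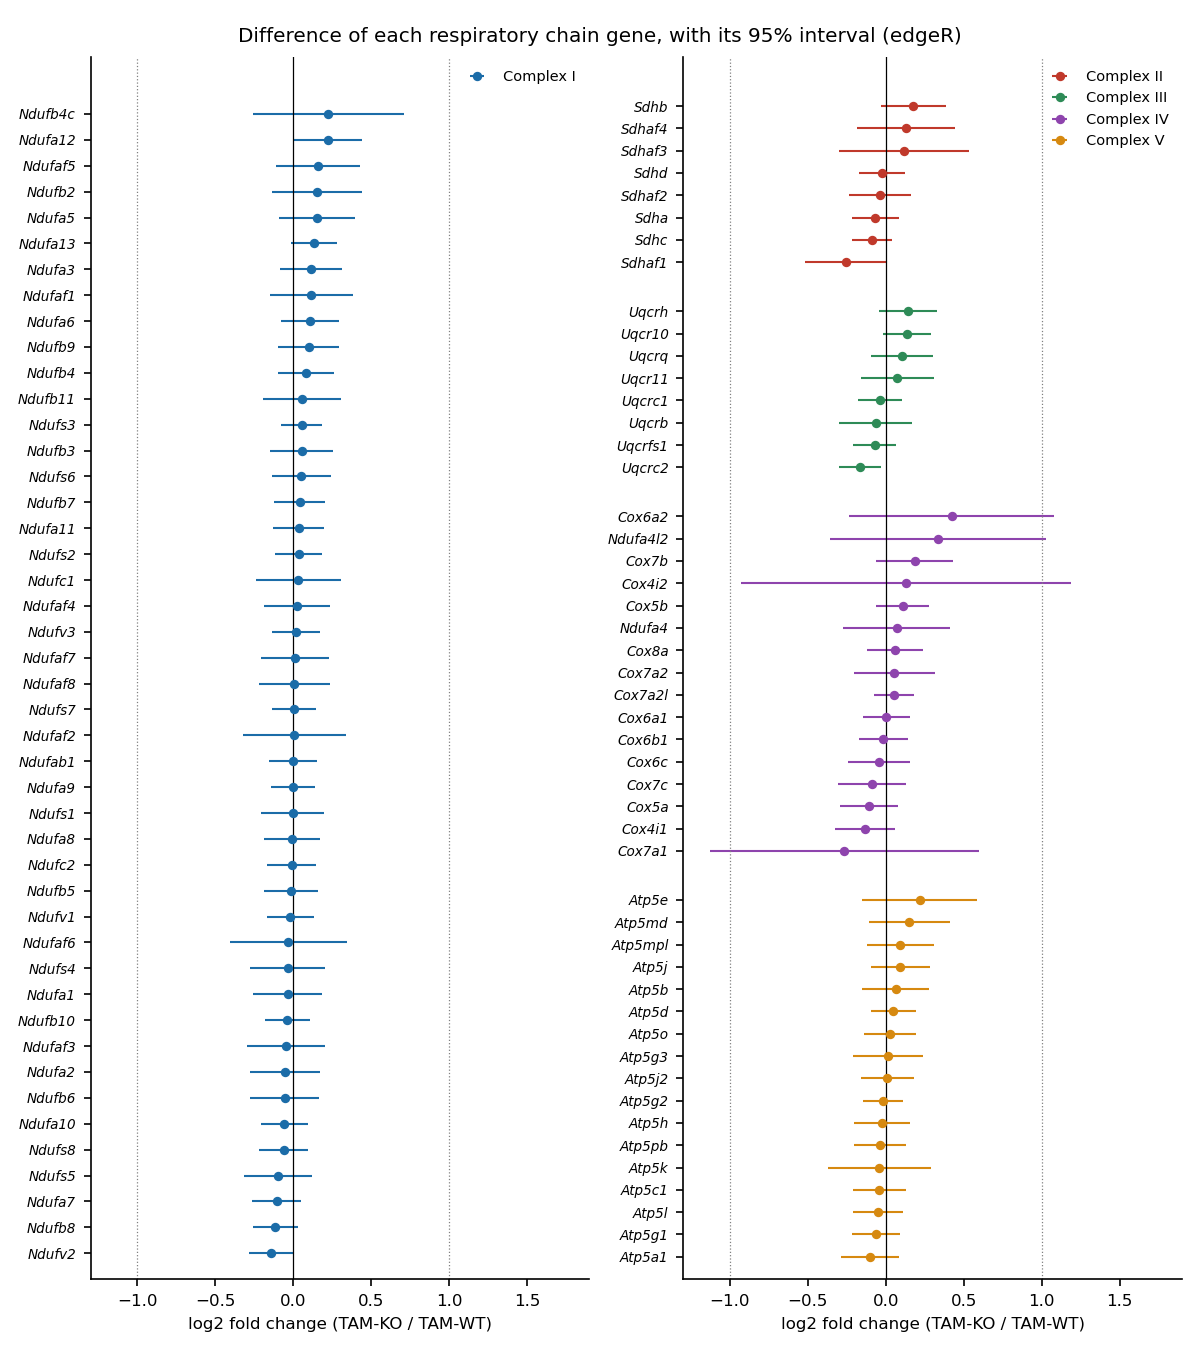
Log2 fold change (TAM-KO over TAM-WT) of the 94 genes tested, with 95% intervals from edgeR, by complex; dotted lines mark a 2-fold change. The points lie between -0.27 (Cox7a1) and 0.42 (Cox6a2), and 4 intervals, all of low complex IV isoforms, reach past a dotted line.

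The result without TAM-WT replicate 2 was different. In that fit 6 genes passed an adjusted p of 0.05, each higher in TAM-KO, when 11.6% of all genes were called higher, and the median log2 fold change of the group was 0.07 against 0.0020 for all genes. They were Ndufa12, Ndufb9 and Ndufb4c of complex I, Sdhb of complex II, Uqcrq of complex III and Cox7b of complex IV, and 3 of them were outside the rule for naming genes and were chosen after their values were seen (Ndufa12, Ndufb9 and Uqcrq). Limma voom with sample quality weights on all libraries called 3 of the 6 (Cox7b, Ndufa12 and Sdhb), when 14.7% of all genes were called higher. The share of the group was thus below the background in both fits, 6 and 3 of 94.

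Among complex I genes, Ndufa12, an accessory subunit, was at 56.1, 74.6, 57.6 and 55.1 CPM in TAM-WT and at 68.2, 71.4, 70.1 and 74.1 CPM in TAM-KO. The TAM-KO values lay together, above 3 TAM-WT libraries and below TAM-WT replicate 2. Its log2 fold change was 0.22 (95% interval 0.0018 to 0.44, edgeR adjusted p = 0.16), and 0.34 without TAM-WT replicate 2 (SE 0.06, adjusted p = 0.0061). Ndufb4c, a near copy of Ndufb4 whose reads may be split between the genes, was at 8.75, 16.0, 8.76 and 11.4 CPM in TAM-WT and at 13.3, 13.0 and 13.2 CPM in TAM-KO replicates 2 to 4. Its change was the largest in complex I among genes with at least 5 CPM (0.22, interval -0.26 to 0.71), and TAM-WT replicate 2 was the highest library here too. The value was 0.45 without that library (SE 0.13, edgeR adjusted p = 0.044), and 0.12 without TAM-WT replicate 1 or 3.

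The core subunits of complex I, which carry the flavin and the iron-sulfur clusters, showed little difference. Ndufs1 was at 102 ± 12.1 CPM in TAM-WT and 102 ± 6.66 CPM in TAM-KO (SD, n = 4 each), with a log2 fold change of -0.0022 (interval -0.20 to 0.20). Ndufv1, the NADH-binding subunit, was at 53.6 ± 3.12 CPM (SD, n = 4) and 52.9 ± 0.471 CPM (SD, n = 3). The 7 core subunits ranged from -0.14 (Ndufv2, interval -0.29 to 0.00024) to 0.05. Of the accessory subunits, the most abundant by FPKM were Ndufa3 (log2 fold change 0.12, interval -0.08 to 0.32) and Ndufb8 (-0.11, interval -0.26 to 0.03). The 8 assembly factors of complex I ranged from -0.04 to 0.16.

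Complex II also works in the tricarboxylic acid cycle. Its iron-sulfur subunit Sdhb was at 135, 159, 129 and 118 CPM in TAM-WT and at 158, 159, 151 and 142 CPM in TAM-KO, so the groups overlapped through TAM-WT replicate 2. The log2 fold change of Sdhb was 0.17 (interval -0.03 to 0.38, edgeR adjusted p = 0.24), and 0.26 without that library (SE 0.07, adjusted p = 0.031). The catalytic subunit Sdha was at 227 ± 15.2 and 216 ± 5.97 CPM (SD, n = 4 each), with a log2 fold change of -0.07 (interval -0.22 to 0.08), which turned to 0.013 when scaled to total reads.

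Sdhc, a membrane anchor of the same complex, was at 132, 144, 136 and 135 CPM in TAM-WT and at 131, 129, 123 and 131 CPM in TAM-KO. These groups did not overlap, by a narrow margin, and the log2 fold change was -0.09 (interval -0.22 to 0.04, edgeR adjusted p = 0.31). Sdhaf1, an assembly factor for the iron-sulfur subunit, had the largest difference in complex II (-0.26, interval -0.52 to 0.0039). It was at 10.2, 9.54, 9.74 and 9.50 CPM in TAM-WT and at 8.37, 7.61, 6.88 and 9.71 CPM in TAM-KO, where replicate 4 reached the TAM-WT range.

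In complex III, Uqcrc2, a core protein of the complex, came nearest to a call. It was at 121, 129, 126 and 129 CPM in TAM-WT and at 117, 110.0, 118 and 105 CPM in TAM-KO. Each TAM-KO library lay below each TAM-WT library, and the log2 fold change was -0.17 (interval -0.30 to -0.03, edgeR adjusted p = 0.10). Uqcrc2 and Sdhc were the only genes of the 94 whose groups did not overlap (2.13%), against 19.3% of all genes tested. Its partner core protein Uqcrc1 was at 210 ± 7.77 and 205 ± 11.5 CPM (SD, n = 4 each), and the Rieske iron-sulfur protein Uqcrfs1 at 85.0 ± 4.46 and 80.9 ± 3.39 CPM.

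Of the 5 small subunits of complex III, 4 had a log2 fold change above 0 and none was called. Uqcr10 had a log2 fold change of 0.14 (interval -0.02 to 0.29), while Uqcrb, the most abundant by FPKM, had -0.07 (interval -0.30 to 0.17). Uqcrq, another small subunit, was at 93.0, 113, 87.9 and 89.1 CPM in TAM-WT and at 109, 96.4, 104 and 102 CPM in TAM-KO. As for Ndufa12, the TAM-KO libraries lay above 3 TAM-WT libraries and below TAM-WT replicate 2. The log2 fold change of Uqcrq was 0.10, and 0.20 without that library (SE 0.06, edgeR adjusted p = 0.049).

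In complex IV, the subunits around the catalytic core were at like levels. Cox4i1 was at 201, 231, 212 and 211 CPM in TAM-WT and at 188, 182 and 214 CPM in TAM-KO replicates 2 to 4, with a log2 fold change of -0.13 (interval -0.33 to 0.06). Cox5a was at 132 ± 10.8 CPM (SD, n = 4) and 122 ± 4.08 CPM (SD, n = 3). The 2 most abundant by FPKM, Cox8a and Cox7c, had log2 fold changes of 0.06 (interval -0.12 to 0.24) and -0.09 (interval -0.31 to 0.13). Cox7a2l, listed with the isoforms, was at 90.1 ± 3.83 and 93.4 ± 3.46 CPM (SD, n = 4 each).

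Cox7b, a small subunit needed for assembly, had the largest difference in complex IV among genes with at least 5 CPM. It was at 106, 136, 109.7 and 99.4 CPM in TAM-WT and at 142, 129, 131 and 112 CPM in TAM-KO. The groups overlapped through TAM-WT replicate 2, and the log2 fold change was 0.18 (interval -0.06 to 0.43, edgeR adjusted p = 0.28), or 0.29 without it (SE 0.08, adjusted p = 0.037). The restricted isoforms gave wide intervals, of -0.93 to 1.19 for Cox4i2, -0.23 to 1.08 for Cox6a2, -0.36 to 1.03 for Ndufa4l2 and -1.13 to 0.60 for Cox7a1.

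In complex V, the F1 subunits alpha and beta form the catalytic head. The beta subunit Atp5b was at 1211, 1443, 1230 and 1247 CPM in TAM-WT and at 1341, 1382 and 1293 CPM in TAM-KO replicates 2 to 4, with a log2 fold change of 0.06 (interval -0.15 to 0.28). The alpha subunit Atp5a1 was at 718, 817, 732 and 771 CPM in TAM-WT and at 693, 694 and 735 CPM in TAM-KO, with a log2 fold change of -0.10 (interval -0.28 to 0.08), which turned to 0.0047 when scaled to total reads. For Atp5b the TAM-KO libraries lay inside the TAM-WT range. For Atp5a1 TAM-KO replicate 4 lay inside it, and the others (693 and 694 CPM) lay below each TAM-WT library. Atp5l, a membrane subunit, had -0.05 (interval -0.21 to 0.11).

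Atp5e, the epsilon subunit, had the largest difference in complex V, 0.22 (interval -0.15 to 0.58). It was at 45.4, 56.6, 48.7 and 29.7 CPM in TAM-WT and at 54.8, 46.1, 54.8 and 53.9 CPM in TAM-KO, and TAM-WT replicate 4 was the low library. Without it the log2 fold change was 0.064, so the rank of Atp5e rests on that library, and without TAM-WT replicate 2 it was 0.35. Atpif1, the inhibitor of the ATP synthase, has another symbol and is no member of the 98. It was at 102, 105, 103 and 94.6 CPM in TAM-WT and at 94.2, 89.4 and 94.99 CPM in TAM-KO (log2 fold change -0.12, interval -0.27 to 0.03, edgeR adjusted p = 0.24).

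Genes that act around the chain were counted in the same fit. Of 41 other assembly factors 0 were called, with Tmem70, which helps to build the ATP synthase, lowest in p (log2 fold change 0.24, edgeR adjusted p = 0.062). Of 13 genes of the tricarboxylic acid cycle 0 were called, with a median log2 fold change of -0.02. Neither Cycs, the electron carrier cytochrome c (0.18, interval -0.14 to 0.50), nor the other gene tested of its list was called. Of 78 genes of the mitochondrial ribosome, Mrpl44 was higher (0.38, edgeR adjusted p = 0.047) and Mrpl23 lower (-0.23, adjusted p = 0.043). Of 85 genes of the cytosolic ribosome 0 were called, with Rpl22l1 lowest in p (-0.29, edgeR adjusted p = 0.073). Of these 85, 17 lay above 0 and 68 below. Over all genes tested the share called was 9.81%.

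Among the regulators, the ubiquinone genes and the carriers, 2 of 14, 1 of 11 and 1 of 7 genes were called, few genes each, against 9.81% of all genes, so nothing is read from these counts about the lists. Ppargc1a, the coactivator PGC-1 alpha that drives mitochondrial biogenesis, was at 42.9, 92.6, 41.5 and 38.6 CPM in TAM-WT and at 105, 123, 120.1 and 107 CPM in TAM-KO. The difference was 1.08 on the log2 scale (interval 0.50 to 1.65, edgeR adjusted p = 0.034), and TAM-WT replicate 2 lay far above the other TAM-WT libraries. Without it the difference was 1.48 (SE 0.08, adjusted p = 0.00014). Among the 7 complete libraries, those in the upper range of Ppargc1a were those in the upper range of the melanoma markers, whose part in the difference was not tested. The cells had been sorted on CD45 and F4/80. Tyrp1, a melanoma marker, was at 1331, 2404, 1139 and 1149 CPM in TAM-WT and at 2840, 2916 and 2230 CPM in TAM-KO replicates 2 to 4. Of 14 biogenesis regulators Twnk, the mitochondrial DNA helicase, was also called higher (0.37, adjusted p = 0.042).

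Coq8a, which acts in ubiquinone synthesis, was at 24.9, 31.2, 15.5 and 20.9 CPM in TAM-WT and at 45.7, 53.8, 42.6 and 48.8 CPM in TAM-KO. The groups did not overlap, the log2 fold change was 1.04 (interval 0.64 to 1.44, edgeR adjusted p = 0.018). Vdac2, a channel of the outer membrane, was at 324, 327, 348 and 351 CPM in TAM-WT and at 279, 249, 266 and 277 CPM in TAM-KO. It was lower in each TAM-KO library (-0.33, interval -0.48 to -0.19, adjusted p = 0.022). Calls depended on single libraries for genes in general: without TAM-KO replicate 2, 23 genes were called higher and 54 lower of all tested. In that fit the log2 fold changes were 0.98 for Coq8a, 1.03 for Ppargc1a, -0.30 for Vdac2, 0.36 for Twnk, -0.23 for Mrpl23 and 0.40 for Mrpl44, and none of the 6 was called (edgeR adjusted p = 0.068, 0.11, 0.087, 0.13, 0.13 and 0.11).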

How the data were processed

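RNA of sorted TAMs was measured in 4 TAM-WT and 4 TAM-KO libraries, grouped by their labels, from 4 mice per group as the study states. The submitters' processing notes name HISAT2 2.0.4, Bowtie2 2.2.5, RSEM 1.2.12 and GRCm38.p6. The authors deposited, per library and gene, RSEM expected counts without normalization and FPKM values relative to gene length and mapped reads. The authors' own comparison (log2 ratios, p and q) was not used. The table of TAM-KO replicate 1 lacks 5311 genes, and 629 of its values, for genes blank in the other 7 tables, were left out.

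Expected counts were rounded, and edgeR 4.0.16 in R 4.3.3 was run on them (TMM, filterByExpr, glmQLFit, glmQLFTest), on 8 libraries where TAM-KO replicate 1 had the gene and otherwise on 7, with Benjamini-Hochberg adjustment over 12412 genes. A gene was called at an adjusted p of at most 0.05. Intervals are 95% and two-sided. CPM values are scaled by TMM. FPKM and CPM means are over 4 or 3 libraries. DESeq2 1.42.0 and limma 3.58.1 were alternatives. The fit was tested on simulated data.

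The members, gene lists and marker lists were chosen with earlier results of these data known. Genes named are the members called, in each complex the 2 of highest FPKM and the 1 of largest change with at least 5 CPM, a list of core subunits and of isoforms, and of each other list up to 3 called genes or the 1 of lowest p. The alternatives were other scalings, tools, filters, thresholds, 7 libraries, a replicate block, FPKM with pseudocounts of 1 and 0.1, and each library left out. Counting limits each value only in part, since the fitted errors carry the spread between libraries, which may be partly technical.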

Additional observations from a re-analysis of the deposited data

Results flagged for a closer look

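In 59 sets of 4 values examined, 11 held a value far from the other 3 by Dixon's test at the 95% level, where chance gives about 1 in 20, and the sums and genes share libraries. TAM-WT replicate 2 was high for the summed level over genes with a value in all 8 libraries, at 2001 CPM in complex I, 705 in complex II, 1272 in complex V and 5036 over all complexes, and for Atp5b at 1443 CPM. TAM-KO replicate 1 was high for complex III at 791 CPM. TAM-KO replicate 4 was high for Ndufb8 at 116 CPM, and TAM-KO replicate 2 low for Atp5e at 46.1 CPM. TAM-WT replicate 4 was high for Ndufa4l2 at 1.48 CPM and for Cox8b at 0.0617 CPM, which is 1 read. TAM-WT replicate 1 was low for Cox7a1 at 0.827 CPM.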

How the results depend on the processing

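The count of respiratory chain genes called higher was 0 as reported, 3 with limma voom and 6 without TAM-WT replicate 2 (0 to 6 with 1 library left out), and 0 in the other fits and at the other thresholds, adjusted p of at most 0.01 or 0.1 included. The count called lower was 0 in each of the 20 fits. The median log2 fold change of the group moved to 0.094 with scaling to total reads, 0.098 with log2(FPKM + 1) and 0.10 with log2(FPKM + 0.1), where the median of all genes moved to 0.089, 0.089 and 0.11, and ran from -0.017 to 0.070 with 1 library left out. In these settings 4 named subunits that lay below 0 turned to just above it. Sdhc did so in both FPKM settings (0.011 and 0.011) and stayed at -0.0096 with total reads. The others did so in all 3 settings: Sdha to 0.013, 0.041 and 0.042, Uqcrfs1 to 0.011, 0.033 and 0.033, and Atp5a1 to 0.0047, 0.0052 and 0.0053. A change of sign was listed here only where the reported difference was at least 1 SE. Over all genes, 568 higher and 650 lower calls became 870 and 480 with total reads and 916 and 408 with log2(FPKM + 1), and 1 library left out gave 23 to 1448 higher and 52 to 1307 lower. The cause was not tested.

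With a replicate block the counts were 0 and 0 and the median was 0.011, and Twnk, Mrpl23 and Mrpl44 were no longer called (edgeR adjusted p = 0.059, 0.093 and 0.062). Same-numbered libraries correlated at -0.48, 0.05, -0.30 and 0.32 in their deviations from the group means, so the numbers were not taken to pair the libraries.

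With 4 and 3 or 4 libraries, small changes are not resolved, and the intervals were widest for 4 low isoforms of complex IV. TAM-KO replicate 1 lacks 26 of the 98 genes.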
